A study of Mus musculus with 342 samples.

Results

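The genes described here are 38 cytochrome P450 genes measured in mouse liver. They are the genes of the array whose symbol has the form of a P450 name (Cyp, a family number, a subfamily letter and a gene number), apart from 8 that the selection set aside (Cyp1a1, Cyp1a2, Cyp2c39, Cyp2c70, Cyp46a1, Cyp4a10, Cyp7a1 and Cyp8b1). The selection used names only, and the 38 genes are among 9093 genes tested. Where several probe sets named a gene alone, the one with the highest mean level was read. The values are RMA log2 values, so a difference of 1 is a doubling, and levels of different probe sets were not set against each other.

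Livers came from male mice, about 8 to 10 weeks old, of 44 Collaborative Cross lines, which are recombinant inbred lines bred from genetically diverse founder strains. The treated mice received 1 oral gavage of TAK-875 (fasiglifam) at 600 mg/kg, and the vehicle mice received the methylcellulose carrier alone. All livers were taken 24 hours later. TAK-875 activates GPR40, a receptor for fatty acids, and was developed for diabetes until liver injury ended its development. There were 171 study pairs of 1 TAK-875 and 1 vehicle mouse of the same line, 4 in 39 lines and 3 in 5 lines, so 342 arrays were used, 171 per treatment. Mice of an inbred line were taken to share a genotype, which was not tested. No gene was altered in either group, and only males were used. The series title names another compound number, and the labels, which name TAK-875, were followed. The design names 45 lines, and 1 of them was not analysed here.

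P450 enzymes are haem proteins of the endoplasmic reticulum or mitochondria that insert an oxygen atom into drugs, fatty acids, sterols, retinoids and steroids, with electrons passed to them by reductase partners. In mouse liver, enzymes of the Cyp2 and Cyp3 families handle most foreign compounds, and some of their genes are known targets of the nuclear receptors CAR and PXR. The Cyp4 genes code for enzymes that hydroxylate fatty acids and eicosanoids, and Cyp7b1, Cyp27a1 and Cyp39a1 act on cholesterol and its oxidised derivatives. Many of the genes lie in clusters of close paralogs, so a probe set can bind more than 1 member. Of the 38 probe sets used, 3 (Cyp2b10, Cyp2c23, Cyp4v3) are marked on the array as shared between transcripts and 3 (Cyp2d9, Cyp2d13, Cyp2f2) as matching alternative transcripts of 1 gene. Whether sequence variants of a line lie under a probe was not tested.

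The stretches upstream of 4 of these genes are shown because they are the member with the largest fall, a pair of Cyp2c paralogs that fell together, and the Cyp3a gene that rose. They end at the first base outside the annotated gene in RefSeq's GRCm38.p6 table, which matched 30 of the 38 genes. Capitals mark AGGTCA, the half-site of nuclear receptors, which the stretches of Cyp4f14 and Cyp2c50 do not hold.
Cyp4f14 (chr17:32917377-32917556, minus strand): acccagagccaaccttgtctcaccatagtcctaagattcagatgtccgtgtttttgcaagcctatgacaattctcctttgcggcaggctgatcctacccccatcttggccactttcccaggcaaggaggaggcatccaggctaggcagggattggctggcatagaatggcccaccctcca
Cyp2c29 (chr19:39286885-39287043, plus strand): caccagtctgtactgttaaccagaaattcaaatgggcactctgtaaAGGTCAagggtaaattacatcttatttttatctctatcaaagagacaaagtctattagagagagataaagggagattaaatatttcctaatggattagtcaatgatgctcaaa
Cyp2c50 (chr19:40089479-40089678, plus strand): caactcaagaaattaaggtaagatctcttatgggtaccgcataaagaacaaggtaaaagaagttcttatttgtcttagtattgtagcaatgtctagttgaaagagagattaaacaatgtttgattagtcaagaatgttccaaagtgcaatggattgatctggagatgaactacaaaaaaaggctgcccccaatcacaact
Cyp3a11 (chr5:145879855-145880054, minus strand): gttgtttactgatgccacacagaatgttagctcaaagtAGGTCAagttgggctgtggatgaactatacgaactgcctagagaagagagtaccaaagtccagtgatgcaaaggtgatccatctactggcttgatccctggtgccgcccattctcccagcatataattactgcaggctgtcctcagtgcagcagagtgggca
Within 200 bases before an annotated start, on either strand, AGGTCA was found for 7 of the 30 genes and in 11.4% of 32851 promoters. TATAAA, the TATA box, was found for 11 of the 30 genes and in 9.96% of promoters. TTATGNAA, the core of the D-box bound by the clock factors Dbp, Tef, Hlf and Nfil3, was found for 3 genes (Cyp2b10, Cyp4f14 at a further annotated start, and Cyp27a1) and in 2.4% of promoters. AGGTCA stood in the windows of both Cyp2c29, which fell, and Cyp3a11, which rose. A gene was counted if any of its annotated starts had a match (34 promoters for the 30 genes), while the percentages are per promoter. The gene counts and these percentages are therefore in unlike units. The motifs were chosen after the values had been seen, and a match is a description only.

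Averaged over lines, 16 of the 38 P450 genes passed a limma adjusted p of 0.05, of which 4 were higher with TAK-875 and 12 were lower. Those lower made up 31.6% of the 38, against 11.9% of all genes tested, and those higher made up 10.5%, against 15.3% of all genes tested. In either direction 42.1% of the 38 passed, against 27.1% of all genes. The median log2 difference was -0.053 over the 38 genes and 0.0056 over all genes, and the median size was 0.103 and 0.053. These balances moved with array scaling: with each array centred on its median, 2 of the 38 were higher and 15 lower (11.6% and 14.7% of all genes), and with quantile normalization applied again 4 were higher and 13 lower (12.9% and 15.2%). Of the 16 genes, 8 passed in all 15 other settings tried, and these were Cyp2c29, Cyp2c50, Cyp2f2, Cyp3a11, Cyp4f13, Cyp4f14, Cyp4v3 and Cyp27a1. In a bulk liver sample, fewer cells of a type and less RNA per cell cannot be told apart.

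**Figure D1:**
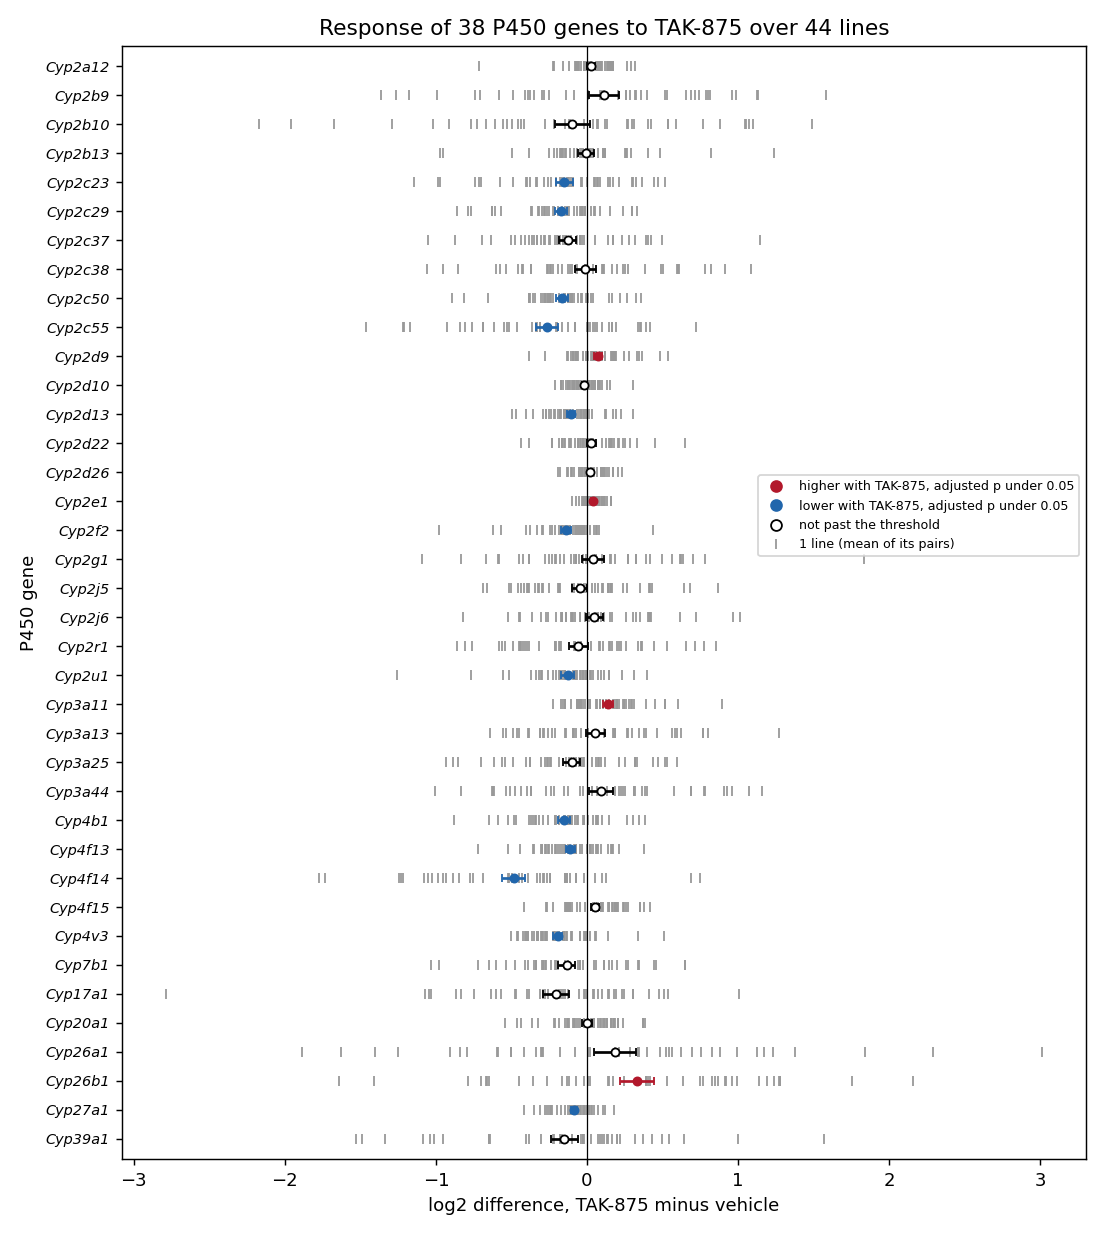
Log2 difference, TAK-875 minus vehicle, of each of the 38 P450 genes. Grey ticks are the 44 line values, and circles with bars are the mean over lines with 1 standard error on each side, in red for the 4 genes higher with TAK-875, in blue for the 12 lower and open for the 22 that did not pass. Cyp4f14 sits farthest below 0, and the line values of Cyp26a1, Cyp26b1 and Cyp2b10 have the largest SD.

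Of the 38 genes, Cyp4f14 had the largest fall. Cyp4f14, which codes for a hydroxylase that inactivates leukotriene B4, had 3.06, 9.18 and 10.5 as its lowest, median and highest value in TAK-875 mice, against 3.69, 9.67 and 10.6 in vehicle mice. The groups overlapped over nearly their whole range, but the TAK-875 mouse was the lower one in 122 of 171 pairs. Line means averaged 8.58 ± 1.54 with TAK-875 and 9.06 ± 1.54 with vehicle (SD, n = 44 lines). The difference was -0.48 ± 0.54 (SD over lines), a 1.40-fold fall, lower in 39 of 44 lines (limma adjusted p = 2.74e-06).

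Cyp4v3, the mouse counterpart of the fatty acid hydroxylase CYP4V2, whose human gene is mutated in Bietti crystalline dystrophy, changed less but as regularly. Its lowest, median and highest values were 9.15, 10.3 and 11.6 in TAK-875 mice, against 8.63, 10.5 and 11.2 in vehicle mice. It fell by 0.19 ± 0.21 and was lower in 38 of 44 lines and in 127 of 171 pairs (limma adjusted p = 2.70e-06). Its other probe set gave -0.27 (limma adjusted p = 2.10e-06 over all 13083 single-gene probe sets).

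Cyp4f13, a paralog of Cyp4f14, and Cyp4b1, a fatty acid hydroxylase that also activates some protoxins, fell by smaller amounts. Cyp4f13 had a median of 7.88 in TAK-875 mice (6.67 to 8.76), against 7.98 in vehicle mice (6.71 to 8.84), a difference of -0.11 ± 0.21 (limma adjusted p = 0.00675). Cyp4b1 had a median of 7.10 in TAK-875 mice (4.53 to 8.42), against 7.26 in vehicle mice (5.76 to 8.70), a difference of -0.15 ± 0.26 (limma adjusted p = 0.0025). Both groups overlapped widely for each gene. Cyp4f15, the third Cyp4f member, did not pass (0.054 ± 0.19, limma adjusted p = 0.167). Of the 5 Cyp4b, Cyp4f and Cyp4v genes among the 38, 4 fell (80.0%, against 11.9% of all genes), with a median of -0.15 over the 5. The Cyp4 genes did not all move one way: Cyp4a10, one of those set aside, rose by 0.45 ± 0.37 (limma adjusted p = 4.32e-09) and Cyp4a12a by 0.21 ± 0.54 (limma adjusted p = 0.0356).

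The Cyp2c genes code for enzymes that oxidise drugs and turn arachidonic acid into epoxides. Of the 6 among the 38, 4 fell, where 11.9% of all genes did, and the other 2 did not pass. The 6 differences ran from -0.26 to -0.0097, with a median of -0.16. Of the Cyp2c genes set aside, Cyp2c39 rose (0.23 ± 0.62, limma adjusted p = 0.0471) and Cyp2c70 fell (-0.30 ± 0.25, limma adjusted p = 1.17e-08). Cyp2c55, known as an inducible member, had a median of 4.56 in TAK-875 mice (3.17 to 8.40), against 4.97 in vehicle mice (3.56 to 8.36). Its difference was -0.26 ± 0.50, lower in 27 of 44 lines (limma adjusted p = 0.00409). Its values lie at the low end of the scale.

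Cyp2c29 and Cyp2c50, whose upstream stretches are shown above, fell by nearly the same amount. Cyp2c29 had a median of 12.6 in TAK-875 mice (9.14 to 13.1), against 12.7 in vehicle mice (10.8 to 13.1). The difference was -0.17 ± 0.29, lower in 34 of 44 lines (limma adjusted p = 0.00152). Cyp2c50 had a median of 11.5 in TAK-875 mice (8.95 to 12.5), against 11.6 in vehicle mice (9.65 to 12.5). The difference was -0.17 ± 0.26, lower in 35 of 44 lines and in 116 of 171 pairs (limma adjusted p = 5.16e-04). For both, the lowest mouse was a TAK-875 mouse, while the highest values of the groups were alike.

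Cyp2c23, an epoxygenase studied mainly in kidney, had a median of 10.1 in TAK-875 mice (3.56 to 11.4), against 10.3 in vehicle mice (4.93 to 11.4). It fell by 0.15 ± 0.39 (limma adjusted p = 0.0442), and 4 of the 14 other settings that hold its probe set lost the call. Cyp2c37 (-0.13 ± 0.39, limma adjusted p = 0.0842) and Cyp2c38 (-0.0097 ± 0.49, limma adjusted p = 0.94) did not pass.

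Of the Cyp3a genes, Cyp3a11 rose. It codes for the main drug-oxidising Cyp3a enzyme of mouse liver and is a known PXR target. Its values ran from 12.1 to 13.2 with a median of 12.9 in TAK-875 mice, against 10.3 to 13.2 with a median of 12.7 in vehicle mice. The low end of the vehicle group lay far under that of the TAK-875 group, while the high ends met. The difference was 0.14 ± 0.23, higher in 30 of 44 lines and in 110 of 171 pairs (limma adjusted p = 0.00107). Cyp3a13 (0.056 ± 0.44), Cyp3a25 (-0.10 ± 0.39) and Cyp3a44 (0.094 ± 0.54) did not pass, with limma adjusted p values of 0.564, 0.19 and 0.415.

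None of the 3 measured Cyp2b genes, which include the classical CAR target Cyp2b10, passed by limma. Cyp2b10 had a median of 7.59 in TAK-875 mice (2.64 to 11.2), against 7.71 in vehicle mice (3.21 to 10.9), and a difference of -0.098 ± 0.80 (limma adjusted p = 0.582). Its other probe set gave -0.050 (limma adjusted p = 0.797). Cyp2b9 differed by 0.11 ± 0.68 (limma adjusted p = 0.433) and Cyp2b13 by -0.0061 ± 0.36 (limma adjusted p = 0.951). Over the list of CAR and PXR inducible P450 genes, 1 of 10 measured rose (Cyp3a11) and 3 fell (Cyp2c29, Cyp2c50, Cyp2c55), with a median of -0.099. That is 10.0% higher and 30.0% lower, against 15.3% and 11.9% of all genes.

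The remaining Cyp2 genes changed little. Cyp2d9, a testosterone hydroxylase found mainly in males, had a median of 12.1 in TAK-875 mice (11.0 to 12.9), against 12.0 in vehicle mice (10.2 to 12.9). It rose by 0.074 ± 0.18 (limma adjusted p = 0.0323), and 5 of the 15 other settings lost the call. Cyp2d13 had a median of 8.34 in TAK-875 mice (7.23 to 11.2), against 8.38 in vehicle mice (6.73 to 11.3), and fell by 0.11 ± 0.17, lower in 36 of 44 lines (limma adjusted p = 0.00175). Cyp2d10, Cyp2d22 and Cyp2d26 did not pass, with differences between -0.017 and 0.028.

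Cyp2e1, the ethanol and acetaminophen oxidase of pericentral hepatocytes, was the steadiest member. Its values ran from 12.5 to 13.1 with a median of 12.9 in TAK-875 mice, against 12.4 to 13.1 with a median of 12.8 in vehicle mice. The rise of 0.039 ± 0.057 was small but was seen in 32 of 44 lines and 114 of 171 pairs (limma adjusted p = 0.00206). With each array centred on its median this call was lost.

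Cyp2f2, a naphthalene oxidase that in liver marks periportal hepatocytes, fell. Its values ran from 10.5 to 13.0 with a median of 12.6 in TAK-875 mice, against 11.6 to 12.9 with a median of 12.7 in vehicle mice. The difference was -0.14 ± 0.22, lower in 37 of 44 lines and 127 of 171 pairs (limma adjusted p = 5.16e-04). Cyp2u1, a fatty acid hydroxylase, had a median of 4.09 in TAK-875 mice (3.22 to 5.90), against 4.10 in vehicle mice (3.27 to 6.39), and fell by 0.13 ± 0.28 (limma adjusted p = 0.0178). Cyp2a12, Cyp2g1, Cyp2j5, Cyp2j6 and Cyp2r1 did not pass, with differences between -0.058 and 0.050.

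The list of pericentral P450 genes had 5 measured, of which 2 rose (Cyp2e1, Cyp3a11) and 2 fell (Cyp2c29, Cyp2c50), and of the 2 periportal genes Cyp2f2 fell. Among all genes 15.3% were higher and 11.9% lower.

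Among the sterol, steroid and retinoid P450 genes, Cyp26b1 rose and Cyp27a1 fell. Cyp26b1, which codes for an enzyme that breaks down retinoic acid, had a median of 5.29 in TAK-875 mice (3.17 to 8.19), against 4.91 in vehicle mice (3.12 to 8.01). The difference of 0.33 ± 0.81, a 1.26-fold rise, was the largest rise among the 38 genes and was seen in 29 of 44 lines (limma adjusted p = 0.0265). In 4 of the 15 other settings this call was lost. Its paralog Cyp26a1 differed by 0.19 ± 0.98 and did not pass (limma adjusted p = 0.35).

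Cyp27a1, the mitochondrial hydroxylase of the sterol side chain that opens the alternative route of bile acid synthesis, had a median of 10.9 in TAK-875 mice (9.66 to 11.7), against 11.0 in vehicle mice (10.3 to 11.5). It fell by 0.087 ± 0.13 and was lower in 31 of 44 lines (limma adjusted p = 6.17e-04). The oxysterol hydroxylases Cyp7b1 (-0.13 ± 0.38, limma adjusted p = 0.0638) and Cyp39a1 (-0.15 ± 0.63, limma adjusted p = 0.232) did not pass, and neither did Cyp17a1, the steroid hydroxylase and lyase (-0.20 ± 0.61, limma adjusted p = 0.0773), or the orphan Cyp20a1 (-0.0019 ± 0.21, limma adjusted p = 0.976). The lists that follow are to be read beside 15.3% of all genes higher and 11.9% lower. Of the lists, 1 of 4 measured sterol and vitamin D genes fell, 1 of 2 retinoic acid genes rose, and the 1 measured steroid hormone gene, Cyp17a1, did not pass. Of 6 measured genes of the female-predominant list 0 passed in either direction by limma, and 1 had an unadjusted p under 0.05. Of 3 measured genes of the male-predominant list, 2 rose (Cyp2d9 and Cyp4a12a, the second not among the 38).

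Without drug, many of the P450 genes differed more between lines than most genes did. By a moderated F test over vehicle arrays, 37 of the 38 differed between lines (97.4%), but so did 98.0% of all genes, so the count alone does not set them apart. The size does for some of them. The SD between lines, after the sampling variance within lines was taken out, exceeded 1 log2 unit for 11 of the 38 (28.9%). Among all genes the share was 1.77%, with no test of that difference. The median SD was 0.497 for the 38 genes and 0.246 for all genes, which were not matched for level. Some members lay under 0.246, among them Cyp2e1 (0.098), Cyp2d26 (0.109), Cyp2f2 (0.131) and Cyp3a11 (0.222). Cyp3a44, whose values lie near the bottom of the scale, did not pass (limma adjusted p = 0.208).

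**Figure D2:**
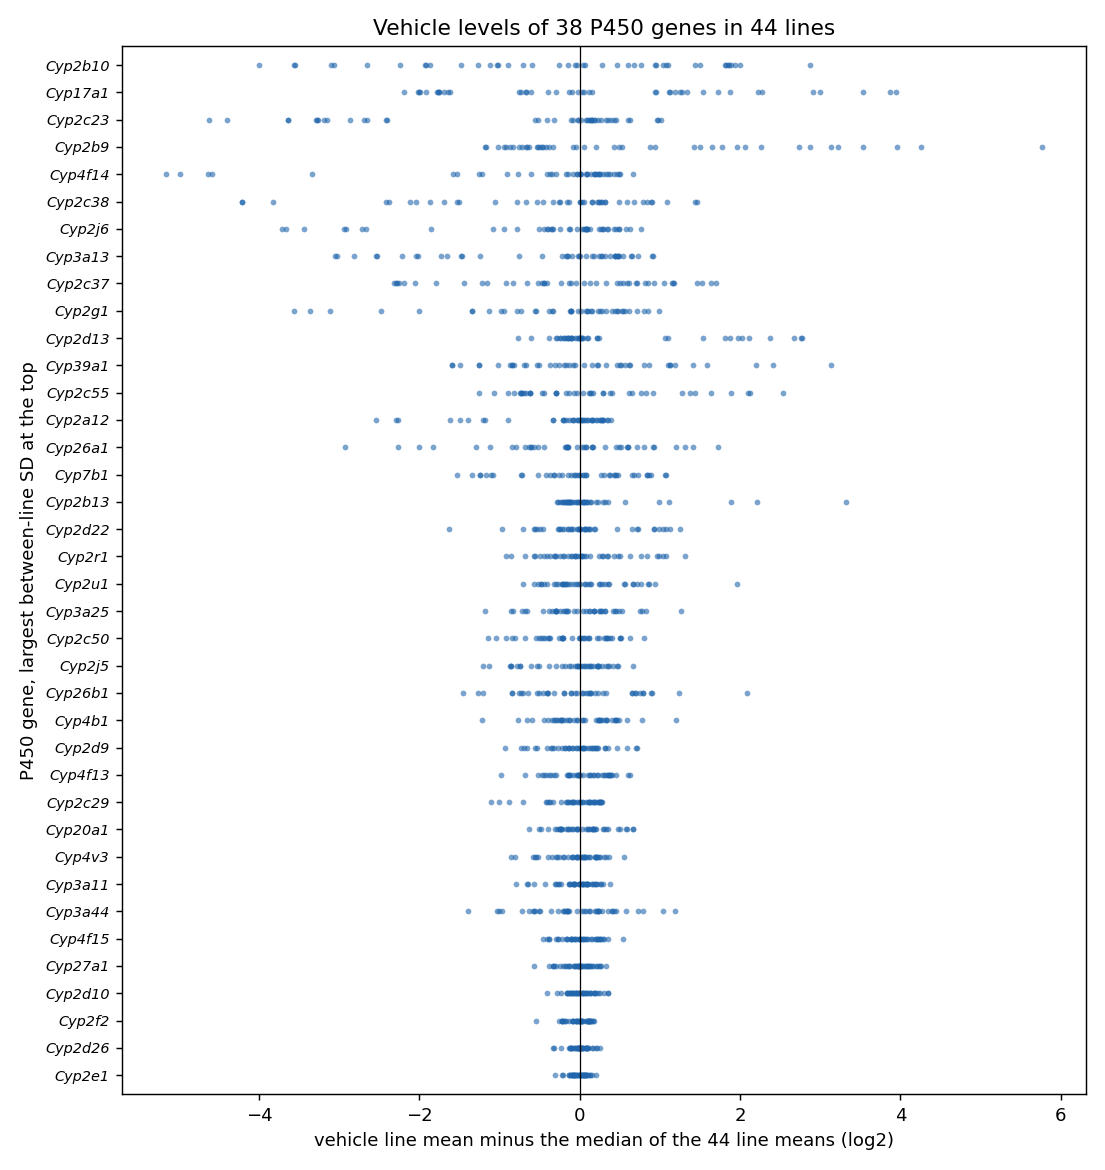
Vehicle level of each P450 gene in the 44 lines. Each point is 1 line mean minus the median of the 44 line means of that gene (log2), with the gene of the largest SD between lines at the top. Cyp2c23, Cyp4f14 and Cyp2c38 show a set of lines far left of the others, while Cyp2e1 and Cyp2d26 stay close to 0.

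Cyp2b10 had the largest SD between lines (1.72), with a line mean of 3.62 in CC039/Unc and 10.5 in CC071/TauUnc. The 4 vehicle mice ranged from 3.21 to 4.01 in CC039/Unc and from 10.2 to 10.9 in CC071/TauUnc. Cyp2b9 (SD 1.63) was lowest in CC039/Unc, at 3.06, and highest in CC024/GeniUnc, at 10.0. Its mice also spread within a line, with an SD of 1.19. Cyp2b13 lay under 4 in 39 of 44 lines and reached 6.49 in CC024/GeniUnc. CC024/GeniUnc was thus the highest line for both Cyp2b9 and Cyp2b13, and also for Cyp2c38 (9.36) and Cyp3a13 (9.68). CC039/Unc was the lowest line for 5 of the 38 genes, and 1 of its 4 vehicle arrays had a median correlation under 0.95 with its group.

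Cyp17a1 (SD 1.70) ran from 3.52 in CC041/TauUnc to 9.65 in CC055/TauUnc, and 12 lines lay at or under 4.09 while 32 lay at or above 4.95. Cyp2g1 (SD 1.05) ran from 4.92 in CC055/TauUnc to 9.48 in CC015/Unc. Cyp2c37 (SD 1.15) ran from 6.49 in CC039/Unc to 10.5 in CC011/Unc. These genes had no empty stretch of over 1 log2 unit with 3 or more lines on each side. Empty stretches closer to the extreme lines were not searched for.

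With 3 or more lines on each side of such an empty stretch, the line means of 3 genes fell into separate sets. Cyp2c23 lay between 5.62 and 7.84 in 14 lines and between 9.68 and 11.3 in 30 lines. Cyp4f14 lay at or under 6.32 in 5 lines (CC025/GeniUnc, CC071/TauUnc, CC008/GeniUnc, CC039/Unc and CC021/Unc) and at or above 8.08 in 39 lines. Cyp2c38 lay at or under 4.07 in CC002/Unc, CC004/TauUnc and CC063/Unc and at or above 5.48 in the other 41 lines. The sets of low lines of the 3 genes differed: CC025/GeniUnc and CC039/Unc were low for both Cyp4f14 and Cyp2c23, and none of the 3 low lines of Cyp2c38 was low for Cyp2c23 or Cyp4f14. Cyp2j6 (SD 1.23) and Cyp3a13 (SD 1.16) had low tails, with 7 lines under 4 for Cyp2j6 and a lowest line mean of 5.71 in CC007/Unc for Cyp3a13.

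**Figure D3:**
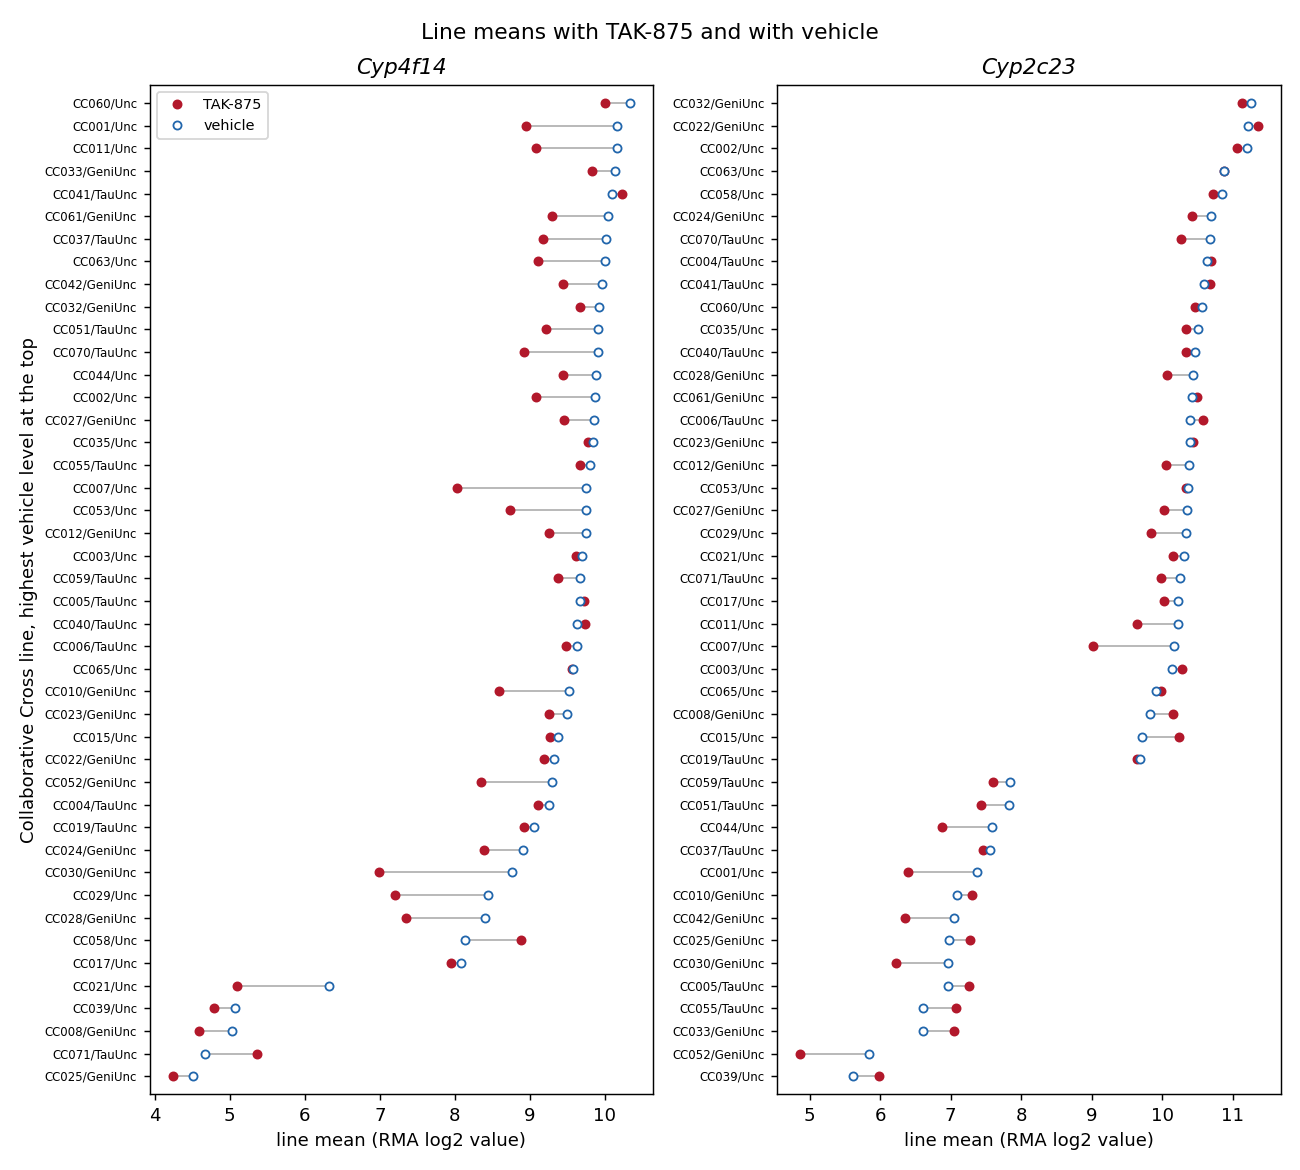
Line means of Cyp4f14 and Cyp2c23 (RMA log2 values), with TAK-875 as filled red circles and vehicle as open blue circles, lines ordered by vehicle level. The gap between the low and the high lines is wider than most differences between TAK-875 and vehicle, and for Cyp4f14 the red circle lies left of the blue one in 39 of 44 lines.

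Some pairs of paralogs varied together between lines. Over 38 pairs of genes of 1 subfamily, 27 pairs were given a correlation over the 44 vehicle line means, and 14 passed after Benjamini-Hochberg adjustment by both Pearson's r and Spearman's rho (permutation test, 100000 permutations), all positive. The highest was Cyp2c37 with Cyp2c50 (r = 0.88, rho = 0.87, permutation adjusted p = 5.40e-05 and 9.00e-05, r = 0.86 without the 2 farthest lines). Next came Cyp2j5 with Cyp2j6 (r = 0.79, rho = 0.72, 0.75 without 2 lines) and Cyp2d10 with Cyp2d22 (r = 0.73, rho = 0.65, 0.72 without 2 lines). Their raw permutation p of 1.00e-05 for r is the smallest that 100000 permutations can give. Cyp2b9 with Cyp2b13 gave r = 0.66 and rho = 0.46, but r = 0.44 without 2 lines. The other 11 pairs held Cyp2c23, Cyp2c38 or Cyp4f14 and were given no pooled correlation because of the separate sets of lines. The points of a pair share their arrays, and the genes of a pair can share probes and lie close together. Pairs of genes from different subfamilies were not correlated, so whether paralogs vary together more than other genes do was not tested.

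The response to TAK-875 itself differed between lines for 9 of the 38 genes by a moderated F test on pair differences (23.7%, against 16.2% of all genes). They were Cyp2a12, Cyp2c23, Cyp2d10, Cyp2f2, Cyp2j5, Cyp3a11, Cyp3a13, Cyp3a25 and Cyp4f14. Leaving out a pair number from every line lowered this count. Without the pairs numbered 1 to 4 in turn, 3, 1, 0 and 4 genes passed by limma, at 2.62%, 1.52%, 1.42% and 7.59% of all genes. At an unadjusted p under 0.05 there were 12, 14, 14 and 18 (20 with all pairs). Without the pairs that hold an array correlating under 0.95 with its group, 11 passed (16.3% of all genes). The cause of these changes was not tested. Ignoring the pairing left 4, with the share of all genes not given here. With each array centred on its median 12 passed (20.6% of all genes), without Cyp2a12, Cyp2j5 and Cyp3a11 and with 6 others. Cyp2f2 passed in each repeat with a pair number left out but the one without number 3.

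Within single lines, 32 of 1672 tests of a P450 gene in a line passed (1.91%, against 1.64% of all gene and line tests), with 12 higher and 20 lower. They fell in 15 lines and on 22 of the 38 genes, and 29 lines had 0 by limma. Of the 32, 28 still passed without the 6 pairs that hold an array correlating under 0.92 with its group, all of them TAK-875 arrays. Without the 19 pairs that hold an array under 0.95 (13 TAK-875 and 6 vehicle arrays), 21 passed, and 2 could not be tested because the whole line dropped out.

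CC007/Unc had 5 P450 genes called, 4 of them lower (13.2% of the 38, against 4.75% of all genes in that line). Cyp2f2 was 12.2, 11.7, 10.5 and 12.2 in its TAK-875 mice of pairs 1 to 4, against 12.7, 12.6, 12.7 and 12.7 in its vehicle mice, so the groups did not overlap. The difference was -0.98 ± 0.12 (SE), with a limma adjusted p of 1.70e-09. Here and below, the SE and p of a line use 1 spread per gene, pooled over all lines. They do not measure the spread of that line's own mice, which can be wider. Cyp4f14 was 8.00, 8.61, 6.39 and 9.10 in TAK-875 mice, against 9.52, 9.70, 10.2 and 9.56 in vehicle mice (-1.73 ± 0.40 SE, limma adjusted p = 0.00276). Here too every TAK-875 mouse lay below every vehicle mouse, and the mouse of pair 3 was the lowest for both genes.

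Cyp2u1 was 4.01, 5.90, 4.53 and 4.87 in TAK-875 mice of CC007/Unc, against 6.39, 5.69, 6.07 and 6.20 in vehicle mice (-1.26 ± 0.21 SE, limma adjusted p = 1.44e-05). The TAK-875 mouse of pair 2 lay among the vehicle mice. This line had the highest vehicle level of Cyp2u1, at 6.09, and the lowest of Cyp3a13, at 5.71. Cyp2c23 was also lower in CC007/Unc (-1.15, limma adjusted p = 0.0061), and Cyp3a11 was higher (0.60, limma adjusted p = 0.00754).

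**Figure D4:**
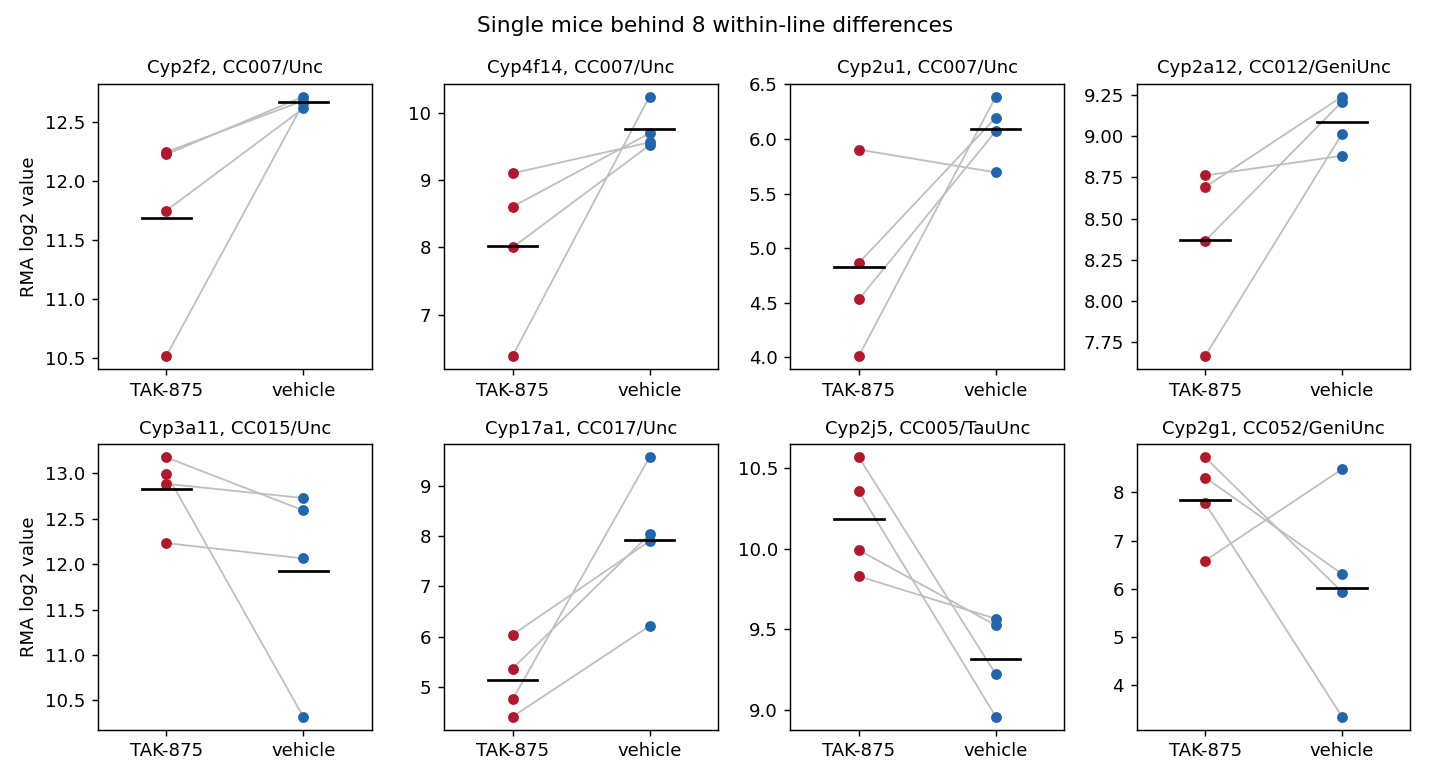
Single mice behind 8 differences called within a line (RMA log2 values), TAK-875 left and vehicle right. Grey lines join the mice of a study pair and black bars are group means. In 6 of the panels the groups do not overlap, or overlap by 1 mouse of a group. Cyp3a11 in CC015/Unc turns on 1 low vehicle mouse, and Cyp2g1 in CC052/GeniUnc on a few.

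In CC015/Unc, Cyp3a11 gave its highest response (0.90 ± 0.15 SE, limma adjusted p = 3.20e-05). Its values were 13.0, 12.9, 13.2 and 12.2 in TAK-875 mice, against 10.3, 12.7, 12.6 and 12.1 in vehicle mice. The vehicle mouse of pair 1 was the low one, and the other vehicle mice lay within or close to the TAK-875 range. Cyp2f2 was also higher there (0.43, limma adjusted p = 0.0267), and Cyp4b1 (-0.88, limma adjusted p = 0.016) and Cyp27a1 (-0.42, limma adjusted p = 0.0278) were lower. In that line 10.5% of the 38 were called, against 2.21% of all genes. CC015/Unc gave the highest response of 8 of the 38 genes and the lowest vehicle level of 4. These counts are not independent, because the response is taken against the same vehicle mice. The vehicle arrays of pairs 2 and 3 of this line correlated under 0.95 with their group. Without those pairs, with pairs 1 and 4 left, Cyp3a11 differed by 1.42 (limma adjusted p = 2.60e-06). That value rests on pair 1, which holds the low vehicle mouse (13.0 against 10.3), while pair 4 differed little (12.2 against 12.1). Cyp2f2 differed by 0.44, about as much as with all pairs, though with 2 pairs left it did not pass (limma adjusted p = 0.273). Cyp4b1 (-0.25, limma adjusted p = 0.95) and Cyp27a1 (-0.28, limma adjusted p = 0.745) differed less and did not pass.

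CC052/GeniUnc had 5 P450 genes called (13.2%, against 11.3% of all genes in that line). Cyp2g1, a P450 known from olfactory mucosa, was 6.58, 8.31, 8.73 and 7.77 in TAK-875 mice, against 8.49, 6.31, 5.93 and 3.34 in vehicle mice. The difference was 1.83 ± 0.39 (SE, limma adjusted p = 4.33e-04), but the groups overlapped. Without pairs 3 and 4, whose vehicle arrays correlated under 0.95, it was 0.050 (limma adjusted p = 0.976). Cyp2c23 (-0.97), Cyp2c29 (-0.79) and Cyp2c50 (-0.81) were lower and Cyp2d9 (0.49) higher. Without those pairs, with 2 left, Cyp2c50 (-0.56, limma adjusted p = 0.279) and Cyp2d9 (0.59, limma adjusted p = 0.0657) did not pass, the difference of Cyp2d9 being no smaller.

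Other lines held 1 to 3 calls each. In CC017/Unc, where 0.517% of all genes were called, Cyp17a1 was 4.75, 6.04, 5.36 and 4.41 in TAK-875 mice, against 9.56, 7.90, 8.03 and 6.21 in vehicle mice, with no overlap (-2.79 ± 0.56 SE, limma adjusted p = 0.00409). Cyp2c55 was also lower in that line (-1.46, limma adjusted p = 0.0492). In CC012/GeniUnc, the line with the lowest vehicle level of the steroid and bile acid hydroxylase Cyp2a12 (9.09), that gene was 8.76, 7.66, 8.69 and 8.36 in TAK-875 mice, against 8.88, 9.01, 9.24 and 9.21 in vehicle mice (-0.72 ± 0.11 SE, limma adjusted p = 1.70e-05). The groups did not overlap, though pair 1 differed little, and 0.715% of all genes were called in that line. Over all lines Cyp2a12 did not pass.

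In CC005/TauUnc the arachidonic acid epoxygenases Cyp2j5 and Cyp2j6 were both higher. Cyp2j5 was 10.4, 10.6, 9.83 and 9.99 in TAK-875 mice, against 8.96, 9.22, 9.57 and 9.52 in vehicle mice (0.87 ± 0.27 SE, limma adjusted p = 0.0243). Cyp2j6 was 6.58, 7.32, 6.77 and 6.94 in TAK-875 mice, against 5.55, 5.93, 5.66 and 6.59 in vehicle mice (0.97 ± 0.30 SE, limma adjusted p = 0.0243). The Cyp2j6 groups overlapped by 1 mouse each, and the Cyp2j5 groups did not overlap. Of the 38 genes 7.89% were called in that line, against 11.3% of all genes. In CC008/GeniUnc, Cyp2d10 (0.31), Cyp2d22 (0.65) and Cyp2e1 (0.16) were higher, at 7.89% of the 38 and 0.726% of all genes.

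Cyp4f14 was lower in CC030/GeniUnc too, at 8.61, 9.29, 5.45 and 4.58 in TAK-875 mice, against 10.0, 10.4, 9.39 and 5.17 in vehicle mice (-1.77 ± 0.40 SE, limma adjusted p = 0.0094). In that line 0.286% of all genes were called. Every pair differed downward, but both groups held mice on both sides of the empty stretch between 6.32 and 8.08 in the line means. Cyp2f2 was lower in CC029/Unc (-0.57, limma adjusted p = 8.42e-04), CC053/Unc (-0.62, limma adjusted p = 0.00561) and CC010/GeniUnc (-0.40, limma adjusted p = 0.0448). In CC010/GeniUnc this came from the TAK-875 mouse of pair 4, at 11.4 against 12.6 to 12.9 in the other 3, whose array had the lowest correlation of all (0.826), and without it the difference was -0.028. Cyp3a13 was higher in CC053/Unc (1.27, limma adjusted p = 0.0245), where all 3 TAK-875 arrays correlated under 0.95 with their group, and without its pair under 0.92 it was 1.18, nearly as large, and with 2 pairs left did not pass (limma adjusted p = 0.366). Of all genes, 3.46% were called in CC029/Unc, 4.34% in CC053/Unc and 2.63% in CC010/GeniUnc. The other calls were Cyp2d9 in CC004/TauUnc (0.54, with 1.30% of all genes called), Cyp4f13 in CC021/Unc (-0.72, 0.935%), Cyp2c50 in CC028/GeniUnc (-0.90, 1.62%), Cyp3a25 in CC041/TauUnc (-0.85, 15.4%) and Cyp4f13 in CC005/TauUnc (-0.52). In CC004/TauUnc the TAK-875 array of pair 4 had a correlation of 0.871. Without that pair Cyp2d9 differed by 0.53, nearly as much, but did not pass (limma adjusted p = 0.1995). Without pairs under 0.95, Cyp2c50 in CC028/GeniUnc differed by -0.66 and did not pass (limma adjusted p = 0.188).

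The members with the widest responses mostly did not pass the test of differences between lines. Cyp26a1 ran from -1.88 in CC040/TauUnc to 3.01 in CC044/Unc. In CC044/Unc it was 10.5, 7.53 and 6.31 in 3 TAK-875 mice, against 4.00, 6.05 and 5.26 in 3 vehicle mice, with no overlap but no call (limma adjusted p = 0.626). Cyp2b10 ran from -2.17 in CC071/TauUnc, its highest vehicle line, to 1.49 in CC030/GeniUnc. Cyp39a1 ran from -1.53 in CC035/Unc to 1.57 in CC042/GeniUnc, and Cyp26b1 from -1.64 in CC040/TauUnc to 2.16 in CC027/GeniUnc. The moderated F tests gave limma adjusted p values of 0.308 for Cyp26a1, 0.091 for Cyp2b10, 0.13 for Cyp39a1 and 0.542 for Cyp26b1.

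Some genes around the P450 system changed, at shares to be read against 15.3% of all genes higher and 11.9% lower. Of 11 measured genes of haem synthesis and breakdown, 3 rose and 2 fell: Alas1, which sets the rate of haem synthesis, rose by 0.59 ± 0.56 (limma adjusted p = 8.04e-08), the biliverdin reductase Blvrb by 0.36 ± 0.22 (4.36e-12) and Cpox by 0.14 ± 0.24 (0.00235), while Urod differed by -0.19 ± 0.13 (1.88e-09) and Ppox by -0.10 ± 0.24 (0.0288). Of 5 measured electron partners, Cyb5a rose by 0.12 ± 0.10 (limma adjusted p = 1.90e-08), and Cyb5r3 (-0.15 ± 0.18, 1.57e-05) and Fdx1 (-0.062 ± 0.14, 0.0203) fell. The medians of the lists were 0.044 and 0.012.

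Of 28 measured transcriptional regulators of P450 genes, 6 rose (21.4%) and 4 fell (14.3%), near the shares of all genes (15.3% and 11.9%), with a median of -0.0047. The PAR-domain clock factors Dbp (1.32 ± 1.15, limma adjusted p = 1.20e-08) and Tef (0.56 ± 0.40, 1.38e-10) rose, and Nfil3, which binds the same element as a repressor, fell (-0.49 ± 0.54, 2.13e-06). Nr1i3, the gene of CAR, rose by 0.40 ± 0.32 (limma adjusted p = 2.99e-09) and was higher in 41 of 44 lines, while Nr1i2, the gene of PXR, rose by 0.11 ± 0.28 (0.0377). Bcl6, a repressor tied to sex differences in liver P450 genes, fell (-0.46 ± 0.84, limma adjusted p = 0.00249). Nr1i2 is named here beside Nr1i3 after its value was seen. The call for Nr1i3 stands beside 0 calls among the Cyp2b genes by limma.

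The counts of cell type markers are to be read beside 15.3% of all genes higher and 11.9% lower. Hepatocyte markers stood high in every array group, with mean levels of 12.1 to 12.4 over lines in both treatments. Of the 7 measured, 1 rose and 1 fell. Markers of Kupffer cells moved with the treatment: 7 of 8 fell, and their mean level over lines ran from 6.38 to 7.73 with TAK-875 and from 6.62 to 7.74 with vehicle. Of the endothelial markers 4 of 7 fell, of the stellate cell markers 2 of 6, and of the red blood cell markers 2 of 3. The part of these shifts in the falls of the P450 genes was not tested. The 1 measured intestine marker, Fabp2, rose (0.44), 1 of 4 pancreas markers (Cela1, -0.56) and 1 of 2 B cell markers fell, and of 3 adrenal markers 0 passed by limma and 1 had an unadjusted p under 0.05. Of markers of cholangiocytes, neutrophils, T and NK cells and kidney, 0 passed by limma at an adjusted or an unadjusted p under 0.05.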

How the data were processed

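Liver RNA of 171 TAK-875 and 171 vehicle mice was measured on Affymetrix HT MG-430 PM arrays. The deposited values are log2 values that the authors summarised by RMA. The submitters' processing notes name Affymetrix Power Tools for this and give no version. Array medians ran from 5.40 to 6.22, so other scalings were tried. Signal over background was not assessed, and dim probe sets were kept. The number of arrays limits the precision.

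Of 16397 probe sets, 13083 name 1 gene, 261 several and 3053 none in the platform table. The members and lists were chosen with earlier results of these data known. All tests were fitted over 9093 genes with limma 3.58.1 in R 4.3.3 (eBayes with a trend on mean level, two-sided, Benjamini-Hochberg). The mean response tests 44 line means of pair differences against 0. Differences between lines, and single lines, were tested on the 171 pair differences with 127 residual degrees of freedom. Study pairs come from the labels, which state that mice were treated in pairs. Deviations of same-pair arrays correlated by 0.0361 on average, against -0.0117 for other pairs of a line, and were over 0.1 in 60 of 171 pairs. The fits of the mean response and of differences between lines were tested on simulated data. Given in full, by rule, were the 10 largest rises and 10 largest falls among called members, the 10 members with the largest vehicle SD between lines, the 8 with the largest response SD, their extreme lines, and up to 5 called genes of each partner list. Cyp2d13, Cyp27a1, the line calls and the motifs were added after their values were seen. Figures and permutations used Python 3.11.15, numpy 2.4.6, pandas 2.3.3 and matplotlib 3.10.9.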

Additional observations from a re-analysis of the deposited data

Results flagged for a closer look

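For 9 P450 genes the difference between TAK-875 and vehicle was not the same in all lines by the moderated F test on pair differences. The limma adjusted p was 1.42e-04 for Cyp2f2, with responses from -0.98 in CC007/Unc to 0.43 in CC015/Unc. It was 0.00797 for Cyp3a11 (-0.22 in CC019/TauUnc to 0.90 in CC015/Unc), 0.00865 for Cyp3a25 (-0.93 in CC055/TauUnc to 0.60 in CC015/Unc) and 0.00966 for Cyp2a12 (-0.72 in CC012/GeniUnc to 0.32 in CC015/Unc). It was 0.0199 for Cyp3a13 (-0.64 in CC041/TauUnc to 1.27 in CC053/Unc), 0.0236 for Cyp2d10 (-0.21 in CC029/Unc to 0.31 in CC008/GeniUnc) and 0.0302 for Cyp2c23 (-1.15 in CC007/Unc to 0.51 in CC015/Unc). Cyp4f14 (0.0364, from -1.77 in CC030/GeniUnc to 0.75 in CC058/Unc) and Cyp2j5 (0.0497, from -0.69 in CC041/TauUnc to 0.87 in CC005/TauUnc) were nearest to the threshold. With each array centred on its median Cyp2a12, Cyp2j5 and Cyp3a11 did not pass. CC015/Unc gave the highest response for 5 of the 9, Cyp2a12, Cyp2c23, Cyp2f2, Cyp3a11 and Cyp3a25. It was also the line with the lowest vehicle level of Cyp2f2 and Cyp3a11, and the response is taken against those same vehicle mice.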

How the results depend on the processing

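Of 563 member results recomputed under the alternatives, 512 kept their direction and their side of the threshold, 19 lost a call, 16 gained one and 16 changed sign. The sign changes were of 9 members that passed in neither fit. They included Cyp2d22 with the mean of all probe sets (-0.013), Cyp2c38 (0.0080), Cyp2g1 (-0.021) and Cyp2r1 (0.034) without poorly correlated pairs, Cyp2r1 (0.015) without pairs under 0.92, and Cyp2c38 (0.022) without lines of fewer than 4 pairs. With each pair number left out in turn, values spanned 0 for Cyp2b9 (-0.040 to 0.22), Cyp2b10 (-0.22 to 0.0049), Cyp2b13 (-0.090 to 0.058), Cyp2c38 (-0.059 to 0.036), Cyp2g1 (-0.054 to 0.10), Cyp3a13 (-0.030 to 0.12) and Cyp20a1 (-0.019 to 0.013). The count of members higher with TAK-875 was 4 (15.3% of all genes). It was 2 with arrays centred on their medians (11.6%) and 2 without lines of fewer than 4 pairs (14.3%). Without poorly correlated pairs (an array correlation under 0.95) it was 2 (15.8%). With each pair number left out in turn it was 2 to 4 (11.5% to 14.2%). Genes whose response differed between lines numbered 9 (16.2% of all genes). With each pair number left out they numbered 0 to 4 (1.42% to 7.59%), a construction that leaves fewer pairs per line. The count was 12 with arrays centred (20.6% of all genes), with 3 of the 9, Cyp2a12, Cyp2j5 and Cyp3a11, lost and 6 gained. It was 11 with quantile normalization (18.2%), 11 without poorly correlated pairs (16.3%) and 13 without pairs under 0.92 (20.7%). Within-line calls numbered 32 (1.91% of tests, against 1.64% over all genes). They numbered 16 to 39 with each pair number left out, with the shares over all genes not given here. With the replicate block (pair differences of all study pairs), 4 members were higher and 15 lower (18.7% and 15.1% of all genes). The 3 gained were Cyp3a25, Cyp7b1 and Cyp17a1. With no replicate block 4 were higher and 13 lower (18.7% and 15.1% of all genes). The count for differences between lines was 4 with no replicate block, with the share of all genes not given here. The cause of these changes in count was not tested. The correlation limit of 0.92 was chosen after seeing the data, as were the alternatives for within-line calls, paralog pairs and single probe sets.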
